A study of Mus musculus with 24 samples.

Results

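The messenger RNAs of 10 genes of transforming growth factor-beta (TGF-beta) and bone morphogenetic protein (BMP) signalling were followed in a murine Nf2-/- Schwann cell (SC) line, MS03, after 24 h with DMSO or with 1 of 7 agents directed at focal adhesion kinase (FAK). The 10 genes were taken by name: the ligands Tgfb1, Tgfb2 and Tgfb3, the receptors Tgfbr1 and Tgfbr2, the signal transducer Smad3, the inhibitor Smad7, and the inhibitor of differentiation genes Id1, Id2 and Id3. All 10 were found among the 49315 genes counted, and all 10 were among the 16070 that passed the filter on low counts. The agents were the 4 FAK kinase inhibitors defactinib, VS-4718, GSK2256098 and IN10018 (ifebemtinib), each at 1 µM, and 3 proteolysis targeting chimeras (PROTACs), PROTAC FAK degrader 1 at 1 µM and GSK215 and BSJ-04-0146 at 0.1 µM. Each of the 8 groups had 3 libraries, which made 24 libraries of poly(A) RNA. MS03 is a single immortalized line in which Nf2, the gene that encodes merlin, was removed with Cre from floxed alleles, so the DMSO libraries lacked Nf2 as well and no group had wild-type cells. The labels call the libraries of a group biological replicates and do not say how the cultures were separated, so the p-values given here measure the spread between these libraries.

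The 3 TGF-beta ligands are secreted in a latent form and, once released, bind TGFBR2, which recruits and phosphorylates TGFBR1. The activated receptor phosphorylates SMAD2 and SMAD3, which join SMAD4 and enter the nucleus to regulate transcription. SMAD7 is an inhibitory SMAD that is itself induced by the pathway and blocks the receptor. BMPs act through related receptors and SMAD1, SMAD5 and SMAD9, and the ID genes are among their best known targets. ID proteins lack a DNA-binding region and hold the E proteins away from DNA. TGF-beta is known in peripheral nerve as a regulator of SC proliferation and of the response of SCs to injury. A FAK kinase inhibitor blocks the enzyme, whereas a PROTAC joins a FAK-binding group to one that recruits an E3 ubiquitin ligase, so that the FAK protein is degraded.

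Levels were given as CPM, the counts of a gene relative to the total of its library after scaling by trimmed mean of M values (TMM) factors, and a gene was called different where the adjusted p of edgeR's quasi-likelihood test was under 0.05 after Benjamini-Hochberg adjustment over all 16070 genes. Total counts were 14472462 to 27449516 per library, with the GSK215 libraries (14472462 to 19331704), BSJ-04-0146 libraries (16112245 to 17794597), PROTAC FAK degrader 1 libraries (18401466 to 21588406) and IN10018 libraries (21654444 to 22899052) below all DMSO libraries (22952048 to 27449516). At these depths the 10 genes were supported by 96 to 2863 reads per library and gene, fewest for Id3 and most for Tgfbr2. The SC markers Sox10 (11.3 to 105 CPM over the libraries), Foxd3 and Ngfr were present, whereas S100b and Egr2, which mark mature and myelinating SCs, stayed under 1 CPM. The summed level of 9 SC markers was 56.2 to 59.7 CPM in the DMSO libraries, 116 to 131 with VS-4718, 235 to 247 with GSK215 and 213 to 233 with BSJ-04-0146, and 50.6 to 57.5 with PROTAC FAK degrader 1. It was 78.6 to 87.4 with defactinib, 78.5 to 82.4 with GSK2256098 and 58.9 to 61.6 with IN10018. With PROTAC FAK degrader 1, 3 of the 9 markers were called higher and 2 lower, against 34.1% and 32.7% of all genes. The sum of 6 fibroblast markers was 737 to 768 CPM with DMSO, 607 to 624 with PROTAC FAK degrader 1 and 1125 to 1151 with GSK215, with Lum at 0 counts and Dcn and Thy1 at no more than 3. The sum of 4 macrophage markers was 3.48 to 3.99 CPM with DMSO and 10.8 to 11.7 with PROTAC FAK degrader 1, with Ptprc and Adgre1 at no more than 1 count. It was 3.61 to 9.03 CPM with the other agents. Cd68 made up most of it, with Csf1r at no more than 1.06 CPM. The part of these marker shifts in the results below was not tested, and in bulk RNA fewer cells of a kind and less RNA per cell cannot be told apart.

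Per kilobase of exon, the 10 genes spanned about an order of magnitude in the DMSO libraries. Smad3 was highest with a mean of 13.2 RPKM, the CPM value divided by exon length in kilobases, followed by Tgfbr2 (10.5 RPKM), Tgfb3 (8.25 RPKM) and Id1 (7.55 RPKM). Tgfbr1 (3.26 RPKM), Id3 (3.22 RPKM), Tgfb2 (3.19 RPKM) and Smad7 (2.94 RPKM) were close to one another, and Id2 (1.97 RPKM) and Tgfb1 (1.35 RPKM) were lowest. The most abundant TGF-beta ligand transcript in DMSO-treated MS03 cells was therefore Tgfb3 and the least abundant Tgfb1.

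Against DMSO, each kinase inhibitor changed 2 to 7 of the 10 genes and each PROTAC 7 to 10. Defactinib changed 4 of the 10, all higher, where 22.4% of all genes tested were called (11.4% higher, 11.0% lower). VS-4718 changed 7, all higher, against 39.2% over all genes (20.4% higher, 18.9% lower). GSK2256098 changed 3, all higher, against 12.5% over all genes (6.36% higher, 6.09% lower). IN10018 changed 2, Id2 upward and Tgfbr1 downward, against 13.3% over all genes (6.44% higher, 6.85% lower). The first PROTAC, PROTAC FAK degrader 1, changed 7 (4 higher, 3 lower), against 66.8% over all genes (34.1% higher, 32.7% lower). GSK215 changed 9 (7 higher, 2 lower), against 54.7% over all genes (27.4% higher, 27.2% lower). BSJ-04-0146 changed all 10 (8 higher, 2 lower), against 54.6% over all genes (27.7% higher, 26.9% lower). The median log2 difference of the 10 genes was 0.21 with defactinib, 0.29 with VS-4718, 0.20 with GSK2256098, 0.05 with IN10018, 0.00 with PROTAC FAK degrader 1, 0.38 with GSK215 and 0.28 with BSJ-04-0146. Over all genes tested it lay between 0.00 and 0.02 with every agent. All 7 comparisons use the same DMSO libraries, so the values for the agents are not independent of one another.

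**Figure D1:**
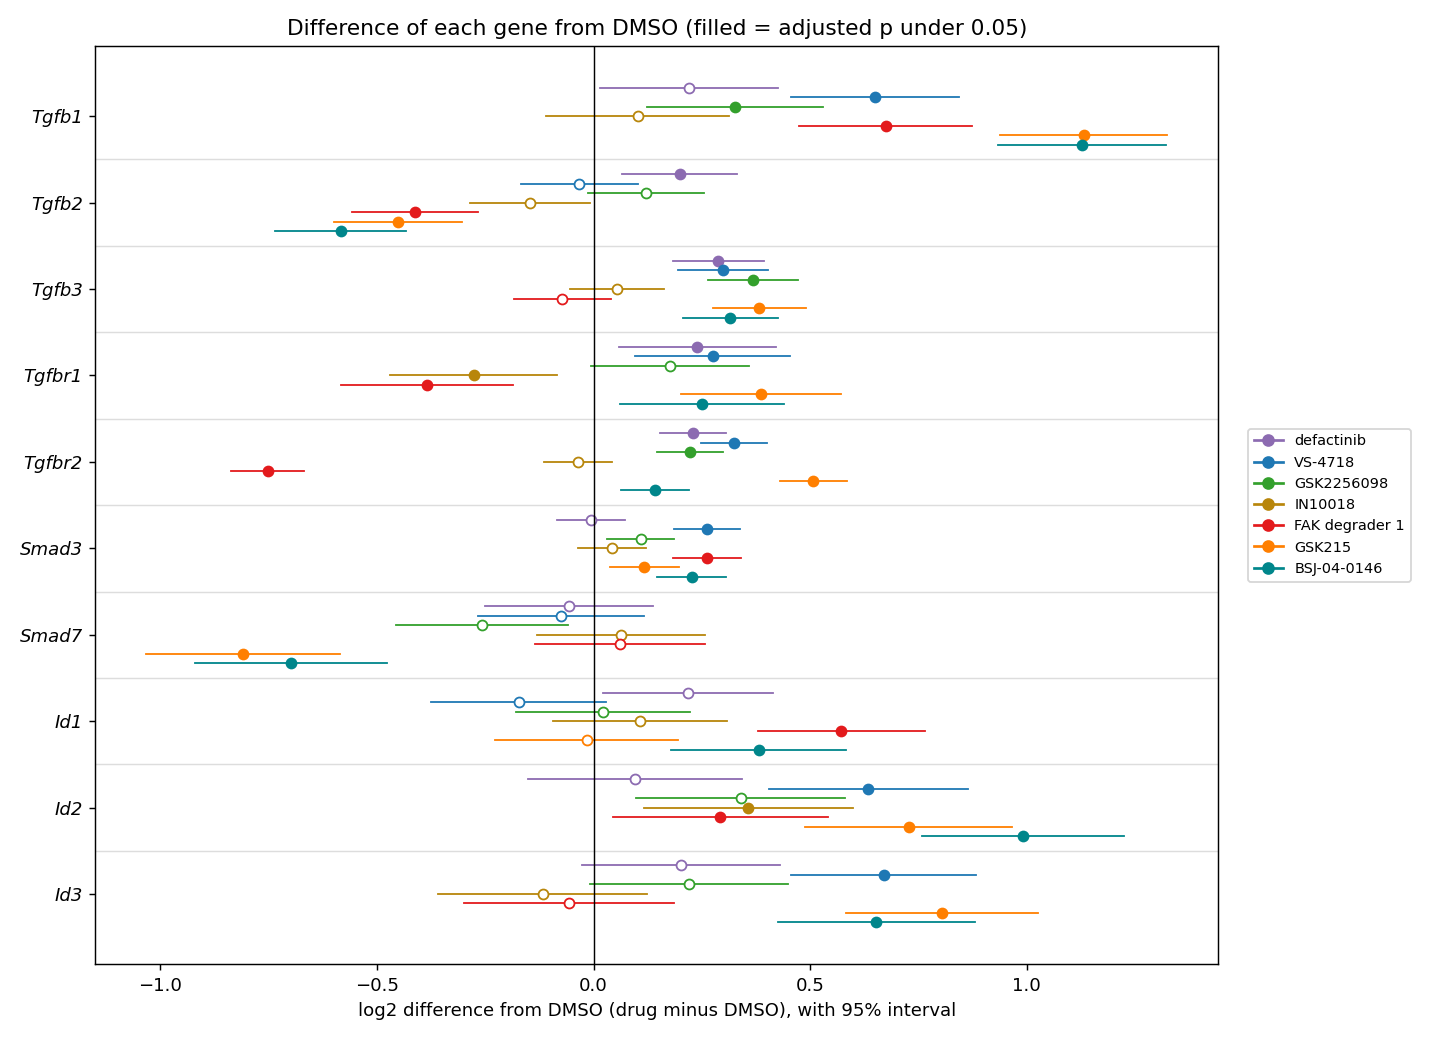
Log2 difference from DMSO of the 10 genes with each of the 7 agents, as estimated by edgeR; bars are 95% intervals and filled points have an adjusted p under 0.05. Tgfb1 lay highest with GSK215 (1.13) and BSJ-04-0146 (1.13), Tgfbr2 lowest with PROTAC FAK degrader 1 (-0.75) and Smad7 lowest with GSK215 (-0.81).

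Among the ligands, Tgfb1 rose with 5 of the 7 agents. Tgfb1 (ENSMUSG00000002603) lies on the forward strand at chr7:25687002-25705077 of GRCm38. Its level was 6.60, 7.40 and 6.42 CPM in the 3 DMSO libraries. GSK215 gave 16.0, 12.9 and 16.0 CPM and BSJ-04-0146 gave 14.9, 16.2 and 13.6 CPM. All 6 of these libraries stood above every library of every other group. The increase was 2.19-fold with GSK215 (log2 difference 1.13 ± 0.095 SE, edgeR adjusted p = 4.02e-13) and 2.18-fold with BSJ-04-0146 (1.13 ± 0.096, adjusted p = 4.87e-13). VS-4718 (10.4, 11.2 and 10.6 CPM) and PROTAC FAK degrader 1 (11.9, 10.7 and 9.92 CPM) formed a middle level that overlapped neither DMSO nor the pair at 0.1 µM. Tgfb1 was 1.57-fold higher with the former (log2 difference 0.65 ± 0.096, edgeR adjusted p = 6.00e-07) and 1.60-fold higher with the latter (0.67 ± 0.099, adjusted p = 1.37e-07). GSK2256098 (9.02, 7.70 and 9.03 CPM) raised it by 0.33 ± 0.10 on the log2 scale (edgeR adjusted p = 0.0256), a call that was lost without DMSO replicate 1 (adjusted p = 0.0936) or 3 (0.123) and without GSK2256098 replicate 1 (0.110) or 3 (0.126). Defactinib (7.36, 8.09 and 8.38 CPM) and IN10018 (7.24, 7.57 and 7.17 CPM) overlapped the DMSO libraries. Their log2 differences were 0.22 (95% interval 0.02 to 0.43, edgeR adjusted p = 0.121) and 0.10 (-0.11 to 0.31, adjusted p = 0.594). With libraries thinned to the smallest total these values rose to 0.40 with defactinib, which then passed the test (edgeR adjusted p = 0.0441), and to 0.40 with IN10018 (adjusted p = 0.0628), and that of GSK2256098 to 0.52 (adjusted p = 0.0126).

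Tgfb2 moved the other way and fell with all 3 PROTACs. Tgfb2 (ENSMUSG00000039239, reverse strand, chr1:186622792-186705989) encodes the ligand that binds TGFBR2 only weakly without the co-receptor betaglycan. The DMSO libraries held 17.3, 19.5 and 18.7 CPM. With PROTAC FAK degrader 1 the libraries held 14.0, 13.3 and 14.4 CPM, with GSK215 12.9, 14.3 and 13.4 CPM, and with BSJ-04-0146 11.2, 12.9 and 12.9 CPM. These 9 libraries lay below all 15 others. The log2 differences were -0.41 ± 0.072 SE (edgeR adjusted p = 3.35e-06), -0.45 ± 0.073 (adjusted p = 1.63e-06) and -0.58 ± 0.075 (adjusted p = 1.46e-08), in the same order. With the kinase inhibitors Tgfb2 stayed between 16.4 and 22.1 CPM. Defactinib (21.1, 20.5 and 22.1 CPM) raised it by 0.20 ± 0.065 (edgeR adjusted p = 0.0240), but the call was lost with DESeq2 (adjusted p = 0.0526), with no filter on low counts (0.0588), without DMSO replicate 1 (0.152) or 3 (0.0574) and without defactinib replicate 1 (0.0540) or 3 (0.124). The IN10018 libraries (17.1, 16.7 and 16.4 CPM) were all below DMSO, with a log2 difference of -0.15 that did not pass the test (edgeR adjusted p = 0.163). Genes on the opposite strand, Gm26169 and Gm29491, overlap Tgfb2, and as the strand setting of the counting is not given in the sources used here their reads cannot be told apart from its own.

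Tgfb3 (ENSMUSG00000021253, reverse strand, chr12:86056745-86079041) rose by a similar amount with 5 agents. DMSO gave 27.3, 27.9 and 28.6 CPM, and the libraries with defactinib, VS-4718, GSK2256098, GSK215 and BSJ-04-0146 spanned 32.3 to 39.5 CPM. No library of these 5 groups reached down to the DMSO range. The log2 differences ran from 0.29 ± 0.052 SE with defactinib (edgeR adjusted p = 6.09e-05) to 0.38 ± 0.053 with GSK215 (adjusted p = 8.57e-08). IN10018 (27.7, 30.3 and 28.9 CPM) overlapped DMSO, with a log2 difference of 0.05 (edgeR adjusted p = 0.581). The 3 lowest and most even libraries were those with PROTAC FAK degrader 1 (26.6, 26.5 and 26.5 CPM), and the log2 difference of -0.07 (95% interval -0.18 to 0.04) did not pass edgeR's test (adjusted p = 0.255). Ttll5, Gm37804 and Gm48008 lie on the opposite strand across Tgfb3, with the same limit on telling their reads apart.

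**Figure D2:**
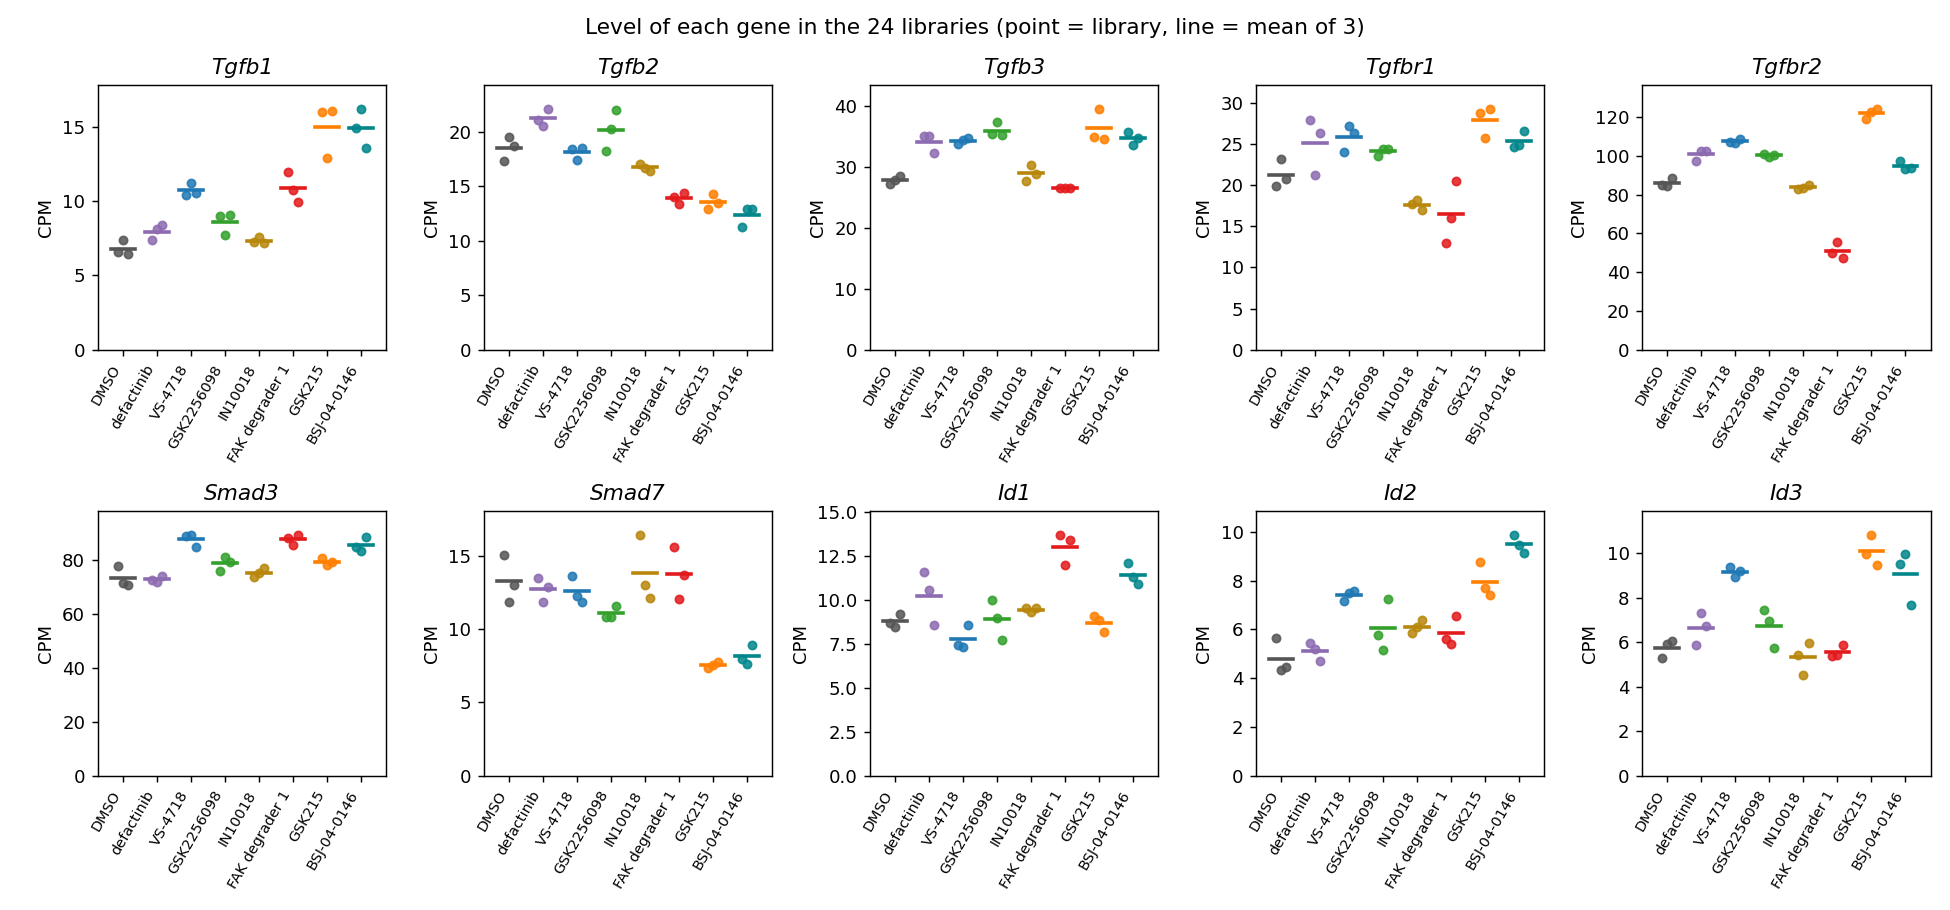
CPM of the 10 genes in each of the 24 libraries by group; each point is 1 library, the line is the mean of 3, and each axis starts at 0. Tgfb1 stood at 12.9 to 16.2 CPM with GSK215 and BSJ-04-0146 against 6.42 to 7.40 with DMSO, and Tgfbr2 at 47.5 to 55.4 CPM with PROTAC FAK degrader 1 against 84.2 to 88.5.

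Of the 8 groups, Tgfbr2 was lowest with PROTAC FAK degrader 1 and highest with GSK215. Tgfbr2 (ENSMUSG00000032440, reverse strand, chr9:116084293-116175360), the type II receptor that binds the ligand, was at 84.8, 84.2 and 88.5 CPM in the DMSO libraries. PROTAC FAK degrader 1 gave 50.0, 55.4 and 47.5 CPM, the lowest of all 24 libraries, and GSK215 gave 119, 123 and 124 CPM, the highest. Tgfbr2 therefore fell to 59.4% of DMSO with the former (log2 difference -0.75 ± 0.041 SE, edgeR adjusted p = 4.93e-19) and rose 1.42-fold with the latter (0.51 ± 0.038, adjusted p = 1.51e-14). VS-4718 (107, 107 and 109 CPM) raised Tgfbr2 by 0.32 ± 0.037 (edgeR adjusted p = 3.82e-09). Defactinib (97.0, 102 and 102 CPM) and GSK2256098 (99.5 to 101 CPM) raised it by 0.23 ± 0.038 (edgeR adjusted p = 1.53e-05) and 0.22 ± 0.038 (adjusted p = 5.43e-05). BSJ-04-0146 (97.3, 93.3 and 93.6 CPM) gave 0.14 ± 0.039 (edgeR adjusted p = 0.00202), or 0.25 with library totals. Each of these groups stood clear of DMSO. IN10018 (82.9, 83.5 and 84.8 CPM) overlapped it, with a log2 difference of -0.04 (95% interval -0.11 to 0.04, edgeR adjusted p = 0.610). The sum of fibroblast markers given above, mostly Col1a1 and Col3a1, was also lowest with PROTAC FAK degrader 1 and highest with GSK215. Its part in the Tgfbr2 levels was not tested.

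Tgfbr1 (ENSMUSG00000007613, forward strand, chr4:47353222-47414931), the type I receptor kinase that phosphorylates SMAD2 and SMAD3, was likewise lowest on average with PROTAC FAK degrader 1 and highest with GSK215, with more scatter. DMSO gave 19.9, 23.2 and 20.8 CPM, and GSK215 gave 28.8, 25.7 and 29.2 CPM, an increase of 0.39 ± 0.091 SE on the log2 scale (edgeR adjusted p = 0.000414). VS-4718 (24.0, 27.2 and 26.4 CPM) and BSJ-04-0146 (24.7, 24.9 and 26.6 CPM) gave 0.28 ± 0.088 (edgeR adjusted p = 0.0115) and 0.25 ± 0.093 (adjusted p = 0.0213). DESeq2 ended both calls (adjusted p = 0.0567 and 0.0779), as did leaving out DMSO replicate 1 (0.0814 and 0.0998), DMSO replicate 3 (0.0575 and 0.0708), VS-4718 replicate 2 (0.0550) or BSJ-04-0146 replicate 3 (0.0938). Defactinib (27.9, 21.2 and 26.4 CPM) was called at 0.24 ± 0.089 (edgeR adjusted p = 0.0484) although its second library lay within the DMSO range. That call was lost with DESeq2 (adjusted p = 0.154), limma (0.0947) and thinned libraries (0.105), without DMSO replicate 1 (0.199) or 3 (0.145), and without defactinib replicate 1 (0.291) or 3 (0.180).

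Lower Tgfbr1 was seen with PROTAC FAK degrader 1 and IN10018. The former gave 12.9, 16.0 and 20.5 CPM, a wide spread in which the third library overlapped DMSO, and a log2 difference of -0.38 ± 0.098 SE (edgeR adjusted p = 0.000714). The size rested on single libraries, at -0.22 without PROTAC FAK degrader 1 replicate 1 (edgeR adjusted p = 0.0390) and -0.57 without replicate 3 (adjusted p = 3.00e-06). IN10018 gave 17.7, 18.2 and 17.0 CPM, all below DMSO, and -0.28 ± 0.095 (edgeR adjusted p = 0.0473). The IN10018 call was lost with library totals in place of TMM (adjusted p = 0.0633), DESeq2 (0.134), limma (0.0814) and thinned libraries (0.201), and on leaving out any library of the comparison except DMSO replicate 1 (0.0658 to 0.253). GSK2256098 (23.6, 24.4 and 24.4 CPM) lay above DMSO in all 3 libraries without passing edgeR's test (0.18, adjusted p = 0.226).

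Because the ligands Tgfb1 and Tgfb2 moved in opposite directions with the PROTACs and both receptor genes were higher with GSK215 and lower with PROTAC FAK degrader 1, the 250 bases before the start of these 4 genes are shown, 5′ to 3′ on the strand of the gene, from RefSeq on GRCm38.p6. Of the 10 genes, 7 were matched in the RefSeq promoter table. Id1 and Tgfb3 had no entry there, and Smad7 was left out of the search. Capitals mark 2 motifs of SMAD-bound DNA, CAGAC on either strand and GGCGCC, which do not overlap one another here. The windows are chr7:25686752-25687001 (+) for Tgfb1, chr1:186705990-186706239 (-) for Tgfb2, chr4:47352972-47353221 (+) for Tgfbr1 and chr9:116175364-116175613 (-) for Tgfbr2.
Tgfb1: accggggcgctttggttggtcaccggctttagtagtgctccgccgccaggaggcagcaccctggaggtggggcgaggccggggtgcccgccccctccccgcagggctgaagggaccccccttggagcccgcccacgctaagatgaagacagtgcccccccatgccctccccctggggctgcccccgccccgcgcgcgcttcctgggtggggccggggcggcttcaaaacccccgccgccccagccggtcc
Tgfb2: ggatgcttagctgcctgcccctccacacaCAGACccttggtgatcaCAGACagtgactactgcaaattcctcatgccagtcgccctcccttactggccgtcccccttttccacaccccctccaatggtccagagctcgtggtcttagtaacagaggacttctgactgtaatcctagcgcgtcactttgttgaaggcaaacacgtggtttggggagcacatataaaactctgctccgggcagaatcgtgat
Tgfbr1: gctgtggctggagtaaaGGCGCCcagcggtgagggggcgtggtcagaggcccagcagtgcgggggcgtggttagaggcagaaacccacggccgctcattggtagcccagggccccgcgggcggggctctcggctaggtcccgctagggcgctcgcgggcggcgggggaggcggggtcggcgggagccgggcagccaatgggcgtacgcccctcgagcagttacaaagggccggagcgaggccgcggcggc
Tgfbr2: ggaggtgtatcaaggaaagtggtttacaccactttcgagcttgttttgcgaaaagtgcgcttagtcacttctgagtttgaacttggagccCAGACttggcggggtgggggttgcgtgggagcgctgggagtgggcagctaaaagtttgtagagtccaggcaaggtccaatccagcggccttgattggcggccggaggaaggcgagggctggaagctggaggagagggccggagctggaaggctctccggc
CAGAC occurred at 2 places in the Tgfb2 window, 221 and 204 bases before the start, and at 1 place in the Tgfbr2 window, 160 bases before it. GGCGCC occurred once in the Tgfbr1 window, 233 bases before the start, and the Tgfb1 window held neither motif. RefSeq lists a second Tgfbr1 window, chr4:47385966-47386215 (+), inside the gene, which is not shown and held CAGAC once and no GGCGCC. Over 32851 promoter windows of this length, 42.2% held CAGAC and 9.59% held GGCGCC. An exon of Gm29491 on the opposite strand covers 167 bases of the Tgfb2 window. The matches describe these letters only and say nothing of whether a SMAD binds there.

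The SMAD genes divided by agent in another way. Smad3 (ENSMUSG00000032402, reverse strand, chr9:63646767-63757994), which carries the TGF-beta signal to the nucleus, varied least of the 10 genes, with a ratio of 1.20 between its highest and lowest group means. DMSO gave 77.9, 71.4 and 70.8 CPM, and VS-4718 (89.0, 89.6 and 85.1 CPM), PROTAC FAK degrader 1 (88.5, 85.7 and 89.3 CPM) and BSJ-04-0146 (85.1, 83.7 and 88.5 CPM) were higher in every library. The increases were 0.26 ± 0.038 SE (edgeR adjusted p = 4.29e-07), 0.26 ± 0.039 (adjusted p = 1.71e-07) and 0.23 ± 0.039 (adjusted p = 4.86e-06) on the log2 scale. GSK215 (81.0, 78.3 and 79.4 CPM) gave 0.12 ± 0.040 (edgeR adjusted p = 0.0113), which did not hold with no filter on low counts (adjusted p = 0.0653) or without DMSO replicate 2 (0.0639) or 3 (0.0816), and was 0.24 with library totals. With the other 3 kinase inhibitors Smad3 lay at 72.1 to 81.3 CPM and overlapped DMSO, with edgeR adjusted p-values of 0.0570 for GSK2256098, 0.543 for IN10018 and 0.936 for defactinib. Smad3 with GSK2256098 (0.11 on the log2 scale) passed the test with library totals (0.0312), in a fit of its 6 libraries alone (0.0362) and without DMSO replicate 1 (0.0177) or GSK2256098 replicate 1 (0.0410).

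Smad7 (ENSMUSG00000025880, forward strand, chr18:75367529-75395935), the feedback inhibitor, fell with GSK215 and BSJ-04-0146. DMSO gave 15.1, 11.8 and 13.0 CPM. GSK215 gave 7.35, 7.53 and 7.74 CPM and BSJ-04-0146 gave 7.95, 7.64 and 8.91 CPM. These 6 libraries lay below the other 18, at 56.7% and 61.4% of the DMSO mean. The log2 differences were -0.81 ± 0.11 SE (edgeR adjusted p = 5.11e-08) and -0.70 ± 0.11 (adjusted p = 7.88e-07). With PROTAC FAK degrader 1, Smad7 was at 15.6, 12.0 and 13.6 CPM, within and around the DMSO range, with a log2 difference of 0.06 (95% interval -0.14 to 0.26, edgeR adjusted p = 0.596). That agent was given at 1 µM and not 0.1 µM, so the PROTACs are set side by side here and not compared. GSK2256098 (10.8, 10.8 and 11.6 CPM) lay below DMSO in every library at -0.26 (edgeR adjusted p = 0.0804), and passed the test with no filter (0.0461), with the replicate number as a block (0.0433), in a fit of its 6 libraries alone (0.0278) and without DMSO replicate 2 (0.0371). The SC marker sum was highest in the GSK215 and BSJ-04-0146 libraries, where Smad7 was lowest and Tgfb1 highest, and its part in these levels was not tested.

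The 3 ID genes did not move as one. Id1 (ENSMUSG00000042745, forward strand, chr2:152736251-152737410) was at 8.68, 8.42 and 9.18 CPM with DMSO. It rose with PROTAC FAK degrader 1 (13.7, 11.9 and 13.4 CPM) and with BSJ-04-0146 (12.1, 11.3 and 10.9 CPM), all of them above the DMSO libraries. The increases were 1.49-fold (0.57 ± 0.095 SE on the log2 scale, edgeR adjusted p = 1.66e-06) and 1.30-fold (0.38 ± 0.10, adjusted p = 0.00130). With GSK215, Id1 overlapped the DMSO libraries (9.05, 8.86 and 8.14 CPM, log2 difference -0.02, 95% interval -0.23 to 0.20). With the kinase inhibitors Id1 spanned 7.29 to 11.6 CPM without a call, from -0.17 with VS-4718 (edgeR adjusted p = 0.179) to 0.22 with defactinib (adjusted p = 0.106). Without defactinib replicate 3, whose 8.53 CPM lay in the DMSO range, defactinib passed the test at 0.34 (edgeR adjusted p = 0.0135).

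Id3 (ENSMUSG00000007872, forward strand, chr4:136143497-136145755) rose with VS-4718, GSK215 and BSJ-04-0146. DMSO gave 5.29, 5.94 and 6.05 CPM, VS-4718 9.41, 8.95 and 9.18 CPM, GSK215 9.97, 10.8 and 9.47 CPM, and BSJ-04-0146 9.54, 9.97 and 7.67 CPM. These 9 libraries were above all 15 others. The log2 increases were 0.67 ± 0.11 SE (edgeR adjusted p = 2.22e-06), 0.80 ± 0.11 (adjusted p = 5.31e-08) and 0.65 ± 0.11 (adjusted p = 4.28e-06). IN10018 (5.44, 4.54 and 5.95 CPM) and PROTAC FAK degrader 1 (5.37, 5.42 and 5.88 CPM) overlapped DMSO, with log2 differences of -0.12 and -0.06. Defactinib (5.88 to 7.32 CPM) and GSK2256098 (5.74 to 7.45 CPM) also overlapped it, at 0.20 (edgeR adjusted p = 0.218) and 0.22 (adjusted p = 0.227).

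Id2 (ENSMUSG00000020644, reverse strand, chr12:25093799-25097140) was called higher with 5 agents, most firmly with the same 3 as Id3. DMSO gave 5.65, 4.32 and 4.45 CPM, BSJ-04-0146 9.89, 9.48 and 9.15 CPM, GSK215 8.79, 7.69 and 7.40 CPM, and VS-4718 7.16, 7.51 and 7.59 CPM. BSJ-04-0146 stood above all other groups. The increases were 1.99-fold with BSJ-04-0146 (0.99 ± 0.12 SE on the log2 scale, edgeR adjusted p = 1.45e-09), 1.66-fold with GSK215 (0.73 ± 0.12, adjusted p = 1.63e-06) and 1.55-fold with VS-4718 (0.63 ± 0.11, adjusted p = 1.70e-05). IN10018 (5.86, 6.10 and 6.40 CPM) gave 0.36 ± 0.12 (edgeR adjusted p = 0.0407), and PROTAC FAK degrader 1 (5.60, 5.42 and 6.56 CPM) gave 0.29 ± 0.12 (adjusted p = 0.0339) with libraries that overlapped DMSO. The IN10018 call was lost with DESeq2 (adjusted p = 0.0720), limma (0.0579), no filter (0.0568) and thinned libraries (0.130), and on leaving out any library of the comparison except DMSO replicate 1 (0.0651 to 0.201). The PROTAC FAK degrader 1 call was lost with DESeq2 (adjusted p = 0.0568), no filter (0.0632) and thinned libraries (0.134), and without DMSO replicate 2 (0.154) or 3 (0.118) or PROTAC FAK degrader 1 replicate 3 (0.179). GSK2256098 (5.76, 5.17 and 7.27 CPM) and defactinib (5.45, 5.18 and 4.72 CPM) overlapped DMSO (edgeR adjusted p = 0.0535 and 0.635). The GSK2256098 difference of 0.34 passed the test with library totals (0.0445) and without DMSO replicate 1 (0.0186) or GSK2256098 replicate 2 (0.0219).

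With 3 libraries against 3, the exact two-sided permutation test of a single gene on log2(CPM + 4) cannot give a p below 0.10, and it reached 0.10 wherever the groups did not overlap. The order of the group means is a description across unequal doses, with no test. Ordered by mean CPM, the 8 groups fell into distinct steps most clearly for Tgfbr2, where 5 of the 7 neighbouring pairs did not overlap: GSK215, then VS-4718, then defactinib and GSK2256098 together, then BSJ-04-0146, then DMSO and IN10018 together, then PROTAC FAK degrader 1. The ratio of the highest to the lowest group mean was 2.39 for Tgfbr2 and 2.20 for Tgfb1. Id1 formed a continuous range in which each group overlapped its neighbours, although PROTAC FAK degrader 1 at one end did not overlap VS-4718 at the other. For Tgfb1 the order was GSK215 and BSJ-04-0146, then PROTAC FAK degrader 1 and VS-4718, then GSK2256098, defactinib, IN10018 and DMSO. In this last run each group overlapped its neighbours, although GSK2256098 overlapped neither IN10018 nor DMSO.

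Agents were tested against one another only at equal dose, which allowed 11 pairs, 10 among the 5 agents at 1 µM and 1 between GSK215 and BSJ-04-0146 at 0.1 µM. The p-values of these comparisons were adjusted over all genes and all 11 pairs together. Tgfbr2 differed in 10 of the 11 pairs. PROTAC FAK degrader 1 gave a lower Tgfbr2 level than each kinase inhibitor at 1 µM, by 0.98 ± 0.041 SE on the log2 scale against defactinib (edgeR adjusted p = 1.80e-22), 1.08 ± 0.041 against VS-4718 (adjusted p = 7.04e-24), 0.97 ± 0.041 against GSK2256098 (adjusted p = 2.39e-22) and 0.72 ± 0.042 against IN10018 (adjusted p = 8.38e-18). Defactinib and GSK2256098 did not differ in Tgfbr2 by the test, and the interval of their difference was narrow (0.01, 95% interval -0.07 to 0.08). Tgfbr2 was slightly lower with defactinib than with VS-4718 (-0.09, edgeR adjusted p = 0.0382), a call lost on leaving out any 1 of the 6 libraries (0.0542 to 0.259). It was slightly higher with VS-4718 than with GSK2256098 (0.10, edgeR adjusted p = 0.0254), a call lost on leaving out any library except VS-4718 replicate 2 (0.0622 to 0.104).

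Across the 10 genes, PROTAC FAK degrader 1 differed from defactinib in 7 of the 10 genes (66.6% of all genes), from VS-4718 in 7 (66.5%), from GSK2256098 in 8 (65.5%) and from IN10018 in 5 (61.4%). Id1 was higher with it than with each kinase inhibitor, and the log2 difference of the inhibitor from PROTAC FAK degrader 1 ran from -0.35 ± 0.094 SE for defactinib (edgeR adjusted p = 0.00195) to -0.74 ± 0.097 for VS-4718 (adjusted p = 2.47e-08). Tgfb2 was lower with it than with each, by 0.27 ± 0.074 against IN10018 (edgeR adjusted p = 0.00305, or 0.0607 with thinned libraries) up to 0.61 ± 0.071 against defactinib (adjusted p = 1.63e-09). Between PROTAC FAK degrader 1 and VS-4718 no difference was detected for Tgfb1 (VS-4718 minus PROTAC -0.03, 95% interval -0.21 to 0.16) or Smad3 (0.00, 95% interval -0.08 to 0.08).

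Among the kinase inhibitors, VS-4718 and IN10018 differed in 8 of the 10 genes (41.2% of all genes), or in 5 with thinned libraries. Id3 was 0.79 ± 0.11 SE higher on the log2 scale with VS-4718 (edgeR adjusted p = 1.14e-07), Tgfbr1 0.55 ± 0.093 higher (adjusted p = 3.84e-06) and Tgfb1 0.55 ± 0.097 higher (adjusted p = 9.10e-06, or a difference of 0.25 and adjusted p = 0.134 with thinned libraries). VS-4718 differed from defactinib in 7 genes (35.5% of all genes), and defactinib minus VS-4718 was -0.47 ± 0.10 for Id3 (edgeR adjusted p = 0.000270) and -0.27 ± 0.038 for Smad3 (adjusted p = 1.61e-07). Between the same agents Tgfb3 and Tgfbr1 were not shown to differ (-0.01, 95% interval -0.11 to 0.09, and -0.04, -0.21 to 0.14). VS-4718 differed from GSK2256098 in 5 genes (30.0% of all genes), GSK2256098 from IN10018 in 6 (24.9%) and defactinib from IN10018 in 5 (36.0%). Defactinib and GSK2256098 differed in 1, Smad3, which was lower with defactinib (-0.11 ± 0.039, edgeR adjusted p = 0.0145), against 17.9% of all genes. That call was lost without defactinib replicate 2 (adjusted p = 0.0522) or GSK2256098 replicate 2 (0.0907).

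GSK215 and BSJ-04-0146, both at 0.1 µM, differed in 3 of the 10 genes against 25.9% of all genes. Tgfbr2 was 0.36 higher on the log2 scale with GSK215 (95% interval 0.29 to 0.44, edgeR adjusted p = 2.28e-10). Id1 was lower with GSK215 than with BSJ-04-0146 (-0.40, 95% interval -0.61 to -0.18, edgeR adjusted p = 0.00195), and so was Smad3 (-0.11, -0.19 to -0.03, adjusted p = 0.0251). The Smad3 call was lost with library totals (adjusted p = 0.0532), no filter (0.114), a fit of the 6 libraries alone (0.0537) and thinned libraries (0.101), and without GSK215 replicate 2 (0.0924) or 3 (0.0600) or BSJ-04-0146 replicate 3 (0.130). For Tgfb1 the estimated difference was 0.00 (95% interval -0.18 to 0.18), for Smad7 -0.11 (-0.37 to 0.14) and for Id3 0.15 (-0.07 to 0.37). The Id2 libraries of the pair did not overlap, and the difference of -0.26 missed the threshold (edgeR adjusted p = 0.0524) but passed it with limma (0.0452), in a fit of the 6 libraries alone (0.0461) and without GSK215 replicate 1 (0.0275).

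**Figure D3:**
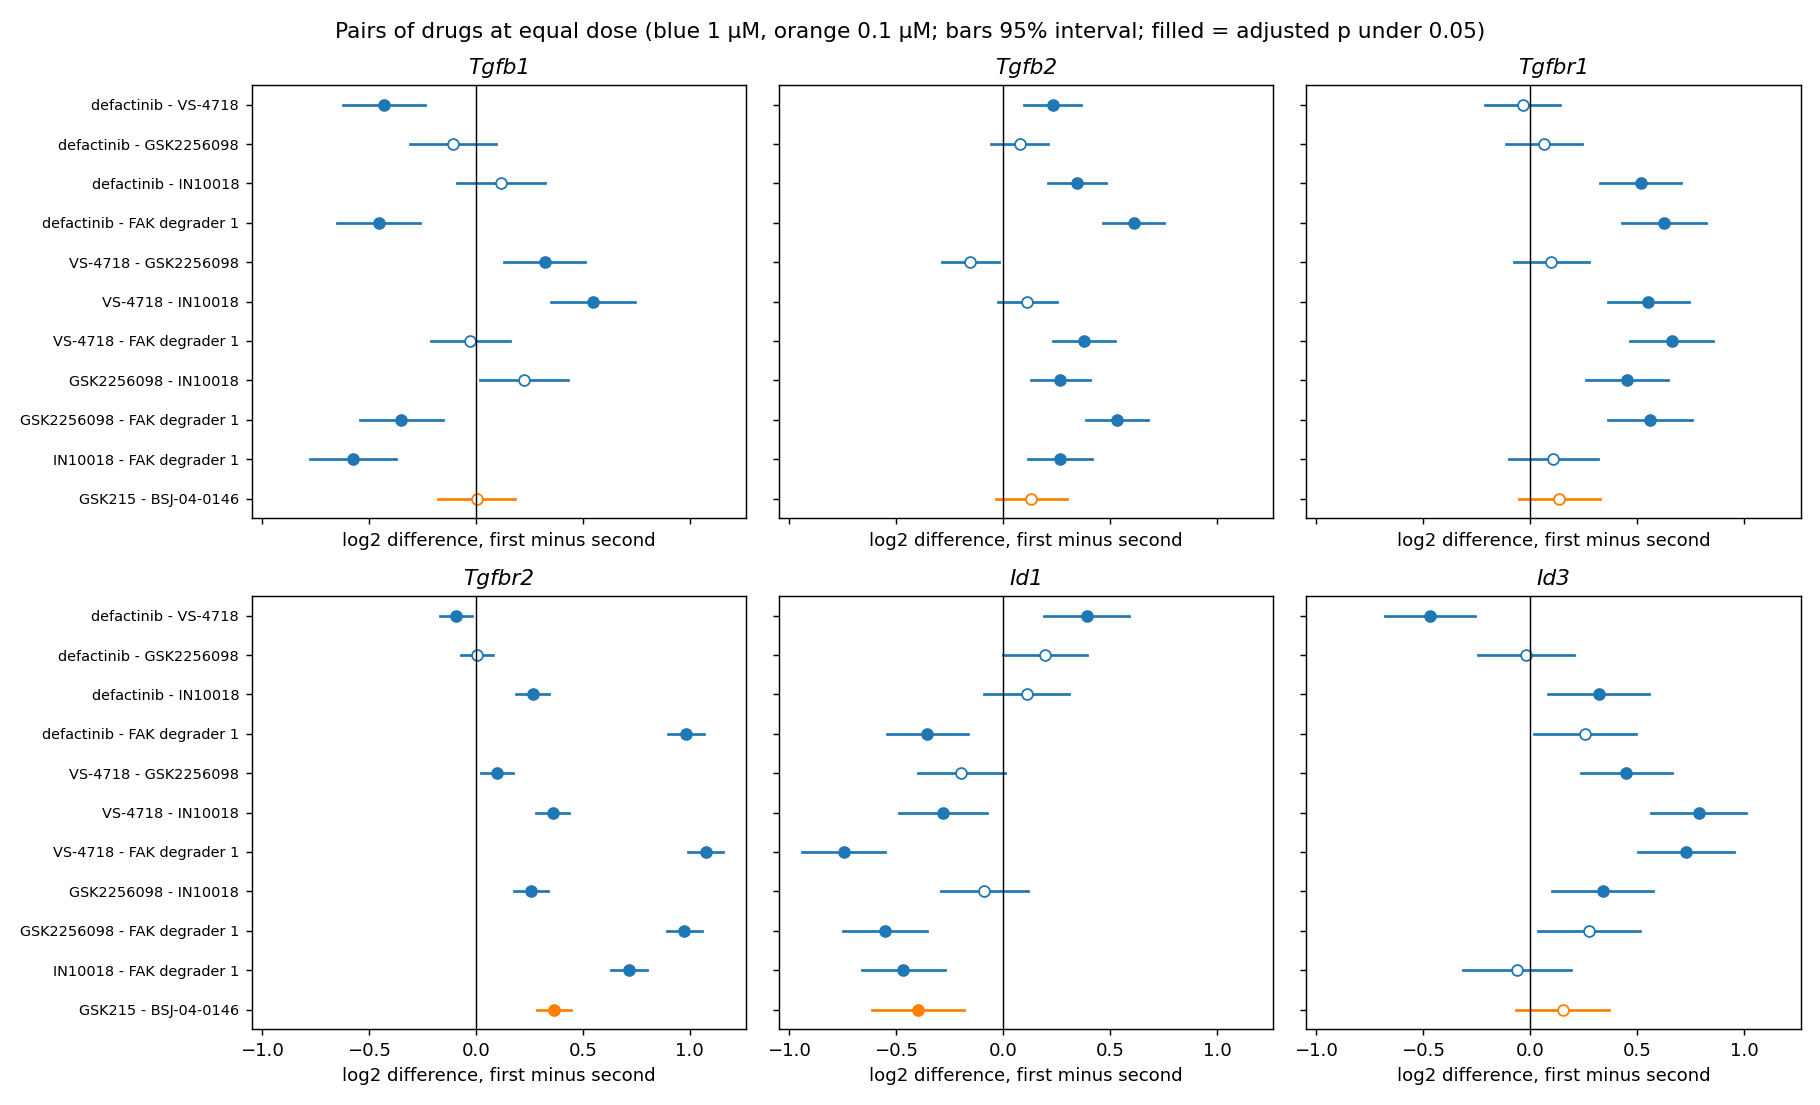
Log2 difference between agents at equal dose for 6 of the 10 genes, with 95% intervals; blue pairs are at 1 µM and orange at 0.1 µM, and filled points have an adjusted p under 0.05 over all genes and 11 pairs. Tgfbr2 differed by 0.72 to 1.08 between PROTAC FAK degrader 1 and the kinase inhibitors, and Tgfb1 by 0.00 between GSK215 and BSJ-04-0146.

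Around these 10 genes, 102 further genes of the pathway were listed by role, of which 72 passed the filter on low counts. Called higher and lower against DMSO were 25 and 6 with defactinib, 23 and 10 with VS-4718, 15 and 5 with GSK2256098, 5 and 9 with IN10018, 27 and 28 with PROTAC FAK degrader 1, 32 and 18 with GSK215 and 27 and 22 with BSJ-04-0146. As shares of the 72 these are 43.1%, 45.8%, 27.8%, 19.4%, 76.4%, 69.4% and 68.1%, in that order, against the shares of all genes given above for each agent. The lists with the most genes tested were the proteins that hold TGF-beta latent, release it or block its relatives outside the cell (16 tested of 27 listed) and the SMADs with their intracellular regulators (16 of 16).

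The latency and antagonist genes were mostly higher with 5 agents and mostly lower with PROTAC FAK degrader 1. They were called higher and lower in 11 and 4 cases with GSK215, 10 and 1 with VS-4718, 9 and 1 with GSK2256098 and 9 and 5 with BSJ-04-0146. All 11 called with defactinib were higher, and of the 5 called with IN10018, 1 was higher and 4 were lower. With PROTAC FAK degrader 1, 12 were lower and 1 was higher, with a median log2 difference of -0.70 over the 16 tested, and with GSK215 the median was 0.44. Of all genes, 27.4% were higher with GSK215, 20.4% with VS-4718, 6.36% with GSK2256098, 27.7% with BSJ-04-0146 and 11.4% with defactinib, and 32.7% were lower with PROTAC FAK degrader 1 and 6.85% with IN10018. Thbs1, whose product thrombospondin-1 releases active TGF-beta from its latent complex, was at 630 ± 9.42 CPM (SD, n = 3) with DMSO. It fell to 212 ± 19.6 CPM with PROTAC FAK degrader 1 (log2 difference -1.57 ± 0.039 SE, edgeR adjusted p = 3.44e-30) and rose to 1633 ± 30.5 CPM with GSK215 (1.37 ± 0.037, adjusted p = 3.62e-28). Ltbp4, which anchors latent TGF-beta in the matrix, went from 82.7 ± 1.77 CPM to 155 ± 7.27 with GSK215 (0.91 ± 0.047, edgeR adjusted p = 2.45e-19).

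Of the 16 SMADs and intracellular regulators, 11 rose and 3 fell with PROTAC FAK degrader 1 (87.5% called, against 66.8% of all genes). With GSK215, 2 rose and 7 fell, and with BSJ-04-0146, 2 rose and 8 fell, where 27.4% and 27.7% of all genes were higher and 27.2% and 26.9% lower. Fewer of the 16 were called with the kinase inhibitors. With defactinib 3 fell (22.4% of all genes called), with VS-4718 2 rose and 4 fell (39.2%), with GSK2256098 1 fell (12.5%) and with IN10018 1 rose (13.3%). Smurf1, a ubiquitin ligase that acts on receptors and SMADs, was at 84.2 ± 3.06 CPM (SD, n = 3) with DMSO and 132 ± 5.67 with PROTAC FAK degrader 1 (log2 difference 0.65 ± 0.044 SE, edgeR adjusted p = 3.73e-16). Usp15, a deubiquitinase that stabilizes the type I receptor, went from 154 ± 0.80 to 109 ± 4.42 CPM with GSK215 (-0.50 ± 0.031, edgeR adjusted p = 8.01e-17). Scaling by library totals reduced the number called with BSJ-04-0146 from 10 to 5.

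Of 10 other receptors and co-receptors tested, 7 were called with defactinib, all higher, 7 with VS-4718 (5 higher, 2 lower), 7 with GSK215 (6 higher, 1 lower), 7 with PROTAC FAK degrader 1 and 7 with BSJ-04-0146 (4 higher and 3 lower with each), 4 with IN10018, all lower, and 1 with GSK2256098, higher. These are 70.0% of the list with each of 5 agents, against 22.4%, 39.2%, 54.7%, 66.8% and 54.6% of all genes in that order. The shares of all genes were 13.3% with IN10018 and 12.5% with GSK2256098. Of 7 other ligands tested, 4 were called with each PROTAC (2 higher, 2 lower), a share of 57.1% against 66.8% of all genes with PROTAC FAK degrader 1, 54.7% with GSK215 and 54.6% with BSJ-04-0146, and no more than 2 were called with any kinase inhibitor, where 12.5% to 39.2% of all genes were. Gdf11, a ligand of the activin receptors, fell from 61.1 ± 2.62 CPM (SD, n = 3) with DMSO to 18.1 ± 0.60 with PROTAC FAK degrader 1 (log2 difference -1.75 ± 0.053 SE, edgeR adjusted p = 1.86e-27). It rose to 70.5 ± 1.67 CPM with defactinib (0.21 ± 0.042, edgeR adjusted p = 0.000318). Inhbb, which encodes the activin B subunit, fell from 7.15 ± 0.73 to 2.40 ± 0.39 CPM with PROTAC FAK degrader 1 (-1.58 ± 0.14, edgeR adjusted p = 5.10e-13) and rose to 12.1 ± 1.06 CPM with GSK215 (0.77 ± 0.10, adjusted p = 3.47e-08). Tgfbr3, which encodes the co-receptor betaglycan that presents TGF-beta2, rose from 12.6 ± 1.01 to 23.6 ± 1.57 CPM with GSK215 (0.90 ± 0.081, edgeR adjusted p = 2.59e-12).

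Genes known to be induced by TGF-beta moved in both directions with every agent, from 3 called of 14 tested with IN10018 (2 higher, 1 lower) to 11 with PROTAC FAK degrader 1 (5 higher, 6 lower) and 10 with GSK215 (7 higher, 3 lower). These are 21.4%, 78.6% and 71.4% of the list, against 13.3%, 66.8% and 54.7% of all genes. With VS-4718 the share was 28.6% against 39.2% of all genes, with BSJ-04-0146 57.1% against 54.6%, and with defactinib and GSK2256098 35.7% against 22.4% and 12.5%. Pmepa1, a TGF-beta-induced feedback inhibitor, rose from 11.3 ± 1.67 CPM (SD, n = 3) to 31.4 ± 1.37 with BSJ-04-0146 (log2 difference 1.46 ± 0.073 SE, edgeR adjusted p = 5.96e-20). With PROTAC FAK degrader 1, Ccn2 (listed as Ctgf), a matrix-associated growth factor, fell from 11.3 ± 0.48 to 2.40 ± 0.28 CPM (-2.23 ± 0.13, edgeR adjusted p = 1.55e-18) while Snai2, a transcription factor of mesenchymal cells, rose from 7.60 ± 0.56 to 16.1 ± 1.23 CPM (1.08 ± 0.094, adjusted p = 4.16e-13). Ccn2 was the 1 lower gene with IN10018 (-0.35, edgeR adjusted p = 0.0131), a call lost without DMSO replicate 1 (0.0541) or IN10018 replicate 2 (0.0745) or 3 (0.0512). Snai2 was lower with GSK2256098 (-0.35, edgeR adjusted p = 0.0259), a call lost with thinned libraries (0.487) and without any library except DMSO replicate 3 (0.0513 to 0.0966). Of 6 tested BMP-induced genes other than the ID genes above, 4 were called with BSJ-04-0146 and 3 with GSK215, all higher, and 3 with PROTAC FAK degrader 1 (2 higher, 1 lower), that is 66.7%, 50.0% and 50.0% against 54.6%, 54.7% and 66.8% of all genes. No more than 2 of the 6 were called with any kinase inhibitor, against 12.5% to 39.2% of all genes. Hes1, a Notch and BMP target, fell with PROTAC FAK degrader 1 from 12.2 ± 0.33 to 5.60 ± 0.61 CPM (-1.12 ± 0.10, edgeR adjusted p = 2.33e-12). It was also lower with VS-4718 (-0.41 ± 0.091, edgeR adjusted p = 0.000362), and higher with defactinib (0.33 ± 0.085, adjusted p = 0.00392) and BSJ-04-0146 (0.30 ± 0.089, adjusted p = 0.00433, or 0.0923 without BSJ-04-0146 replicate 1).

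Of the genes of the 3 E proteins, to which ID proteins bind, all 3 were called with VS-4718 (2 higher, 1 lower, against 39.2% of all genes) and PROTAC FAK degrader 1 (2 higher, 1 lower, against 66.8%). The increases of Tcf3 and Tcf4 with VS-4718 were lost with DESeq2 (adjusted p = 0.0546 and 0.0724) and thinned libraries (0.0935 and 0.673). They were also lost with edgeR on leaving out any DMSO library (0.105 to 0.111 and 0.117 to 0.145). The decrease of Tcf3 with PROTAC FAK degrader 1 was lost with library totals (edgeR adjusted p = 0.410). With defactinib (22.4% of all genes), GSK215 (54.7%) and BSJ-04-0146 (54.6%), 1 was higher and 1 lower, and with GSK2256098 1 was lower (12.5%). The GSK2256098 call, Tcf12, was lost with library totals (edgeR adjusted p = 0.0967), no filter (0.0771) and thinned libraries (0.108). It was also lost on leaving out any 1 of the 6 libraries (0.0508 to 0.145). Tcf4 with defactinib was lost with thinned libraries (0.275) and without any library except defactinib replicate 2 (0.0695 to 0.128). Tcf12 with GSK215 was lost with thinned libraries (0.0732) and without DMSO replicate 1 (0.0714) or GSK215 replicate 3 (0.154). With IN10018 the edgeR adjusted p-values of the 3 genes were 0.0739 to 0.366. Tcf4 rose from 74.2 ± 0.29 to 117 ± 6.01 CPM with BSJ-04-0146 (0.66 ± 0.042, edgeR adjusted p = 1.43e-16), and Tcf12 went from 171 ± 3.30 to 159 ± 4.01 CPM with the same agent (-0.10 ± 0.033, adjusted p = 0.00869), a direction that library totals turned (0.0072, adjusted p = 0.879) and a call lost without BSJ-04-0146 replicate 2 (0.0580). Tcf12 rose to 205 ± 5.89 CPM with PROTAC FAK degrader 1 (0.26 ± 0.032, edgeR adjusted p = 2.35e-09) and fell to 154 ± 3.09 CPM with VS-4718 (-0.14 ± 0.032, adjusted p = 0.000369).

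**Figure D4:**
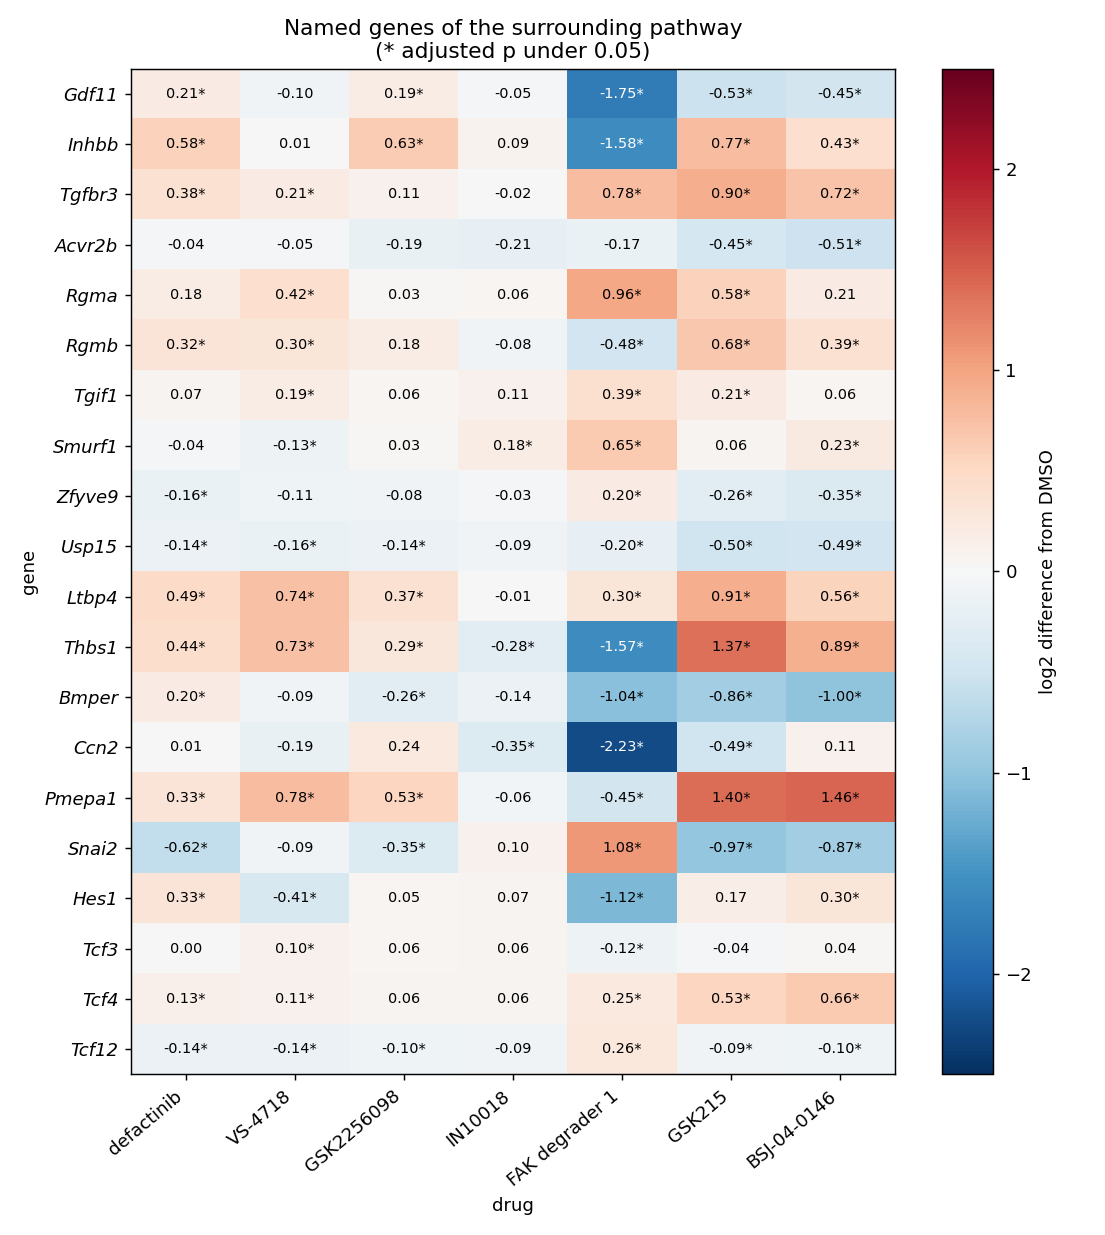
Log2 difference from DMSO of 20 further genes of the pathway, ordered by role, with each of the 7 agents; colour gives the difference and an asterisk an adjusted p under 0.05. Thbs1 was lower with PROTAC FAK degrader 1 (-1.57) and higher with GSK215 (1.37), and Pmepa1 was highest with BSJ-04-0146 (1.46).

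As a description, the genes outside these lists whose 8 group means of log2(CPM + 4) ran closest to each of the 10 were found by Pearson correlation. The closest were Myo10 for Tgfbr2 (r = 0.997), Acox3 for Tgfb1 (0.993), Srd5a3 for Id3 (0.992), Mrps31 for Smad7 (0.991), Elac2 for Tgfb2 (0.988), Tmem128 for Tgfbr1 (0.987), Cdk5 for Id2 (0.986), Csrp1 for Smad3 (0.985), Mapk12 for Id1 (0.973) and Taok2 for Tgfb3 (0.958). Among the 10 genes themselves the closest pair over the 8 means was Tgfb3 with Tgfbr1 (r = 0.91), followed by Tgfbr1 with Tgfbr2 (0.90) and Tgfb1 with Id2 (0.88), and the most opposed were Tgfb1 with Smad7 (-0.83), Smad7 with Id3 (-0.81) and Tgfb1 with Tgfb2 (-0.80). The 8 points of each correlation are group means from the same libraries, with lower totals in the 3 PROTAC groups and the IN10018 group than with DMSO.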

How the data were processed

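Poly(A) RNA of MS03 cells was sequenced by the authors' service provider. Per the submitters' processing notes, reads were trimmed with Trimmomatic 0.36, aligned to GRCm38 with STAR 2.5.2b and assigned to genes with featureCounts of Subread 1.5.2. The values deposited are raw counts per gene, with no normalization, and the strand setting and annotation release are not given in the sources used here. Counts of 174 entries without a gene symbol were kept under their identifier. Counts were tested in R 4.3.3 with edgeR 4.0.16 (TMM, filterByExpr, quasi-likelihood test, 1 coefficient per group over 24 libraries, 16 residual degrees of freedom, two-sided), with Benjamini-Hochberg adjustment over all genes, or over all genes and 11 pairs for agents at equal dose. SEs follow from the F statistic. RPKM used the exon lengths of GENCODE M21. The code was tested on simulated data. All 10 genes were named, and from each of the 7 pathway lists the 2 called genes that rose most and the 2 that fell most, provided they averaged 5 CPM or more; some listed genes are not reported here. The genes and lists were chosen with earlier results of these data known. Alternatives were library totals, DESeq2 1.42.0, limma 3.58.1 on log2(CPM + 4), no filter, a replicate block, fits of 6 libraries, thinning to 14472462 counts, and leaving out each library. For pathway genes they were added after the data were seen.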

Additional observations from a re-analysis of the deposited data

Results flagged for a closer look

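For 8 combinations of a gene and 2 agents at 1 µM, the agents were called in opposite directions against DMSO and the difference between them also passed edgeR's test, adjusted over all genes and 11 pairs. The combinations were picked on these same p-values, which are therefore not a further test. Tgfbr2 was higher than DMSO with defactinib, VS-4718 and GSK2256098 and lower with PROTAC FAK degrader 1, and the differences were 0.98 ± 0.041 SE (adjusted p = 1.80e-22), 1.08 ± 0.041 (adjusted p = 7.04e-24) and 0.97 ± 0.041 (adjusted p = 2.39e-22) on the log2 scale. Tgfbr1 was higher with defactinib and VS-4718 and lower with PROTAC FAK degrader 1, by 0.62 ± 0.096 (edgeR adjusted p = 8.14e-07) and 0.66 ± 0.095 (adjusted p = 2.22e-07). The same 2 kinase inhibitors differed from IN10018 in Tgfbr1 by 0.52 ± 0.094 (edgeR adjusted p = 1.42e-05) and 0.55 ± 0.093 (adjusted p = 3.84e-06), although the calls of defactinib, VS-4718 and IN10018 against DMSO were lost under several alternatives. Tgfb2 was higher with defactinib and lower with PROTAC FAK degrader 1, by 0.61 ± 0.071 (edgeR adjusted p = 1.63e-09), where the defactinib call against DMSO was also lost under several alternatives.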

How the results depend on the processing

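No value of the 10 genes changed sign past the threshold under any alternative. Of 70 differences from DMSO, the side of the threshold was kept for 63 with DESeq2, 67 with limma, 67 with library totals, 65 with no filter, 65 with thinned libraries, 68 in fits of 6 libraries and 381 of 420 when 1 library was left out. Of 110 differences between agents it was kept for 107 with DESeq2 and 94 with thinned libraries, where 15 calls were lost. Thinning was done in 1 random draw, which also moved estimates, as for Tgfb1 in VS-4718 against IN10018 (0.55 to 0.25). The cause of the changes under the alternatives was not tested. The number of the 10 genes called with defactinib went from 4 to 2 with DESeq2 (2 to 4 on leaving out 1 library), and with GSK2256098 from 3 to 5 with library totals and 5 in a fit of 6 libraries. With IN10018 it went from 2 to 1 with library totals and 1 with no filter, and to 0 with DESeq2, limma and thinned libraries, where 2, 2 and 3 genes had an unadjusted p under 0.05. Leaving out 1 library with edgeR left 0 to 2 called with IN10018, and 1 to 3 at an unadjusted p under 0.05 where 0 were called.

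Between defactinib and GSK2256098 the number went from 1 to 2 in a fit of 6 libraries, and 0 to 2 on leaving out 1 library with edgeR (2 at an unadjusted p under 0.05 where 0 were called). VS-4718 against GSK2256098 went from 5 to 3 with thinned libraries (2 to 5 on leaving out 1 library), and VS-4718 against IN10018 from 8 to 5 with thinned libraries. In the pathway lists, SMAD and regulator genes went from 1 to 2 with GSK2256098 (fit of 6 libraries, thinned libraries), from 1 to 2 with IN10018 (limma, fit of 6 libraries, thinned libraries; 0 to 1 on leaving out 1 library) and from 10 to 5 with BSJ-04-0146 (library totals). Latency and antagonist genes with IN10018 went from 5 to 3 with no filter and 2 to 4 on leaving out 1 library, and all pathway genes from 14 to between 7 and 11 with IN10018 and from 20 to between 13 and 19 with GSK2256098. Tcf12 reversed with library totals, from -0.09 to 0.030 with GSK215 and from -0.10 to 0.0072 with BSJ-04-0146. Library totals moved the median of all genes to 0.14 with GSK215 and 0.13 with BSJ-04-0146. They also moved the calls from 4407 higher and 4379 lower to 6190 and 2867 with GSK215, from 4451 and 4320 to 6018 and 2966 with BSJ-04-0146, and from 1828 and 1766 to 2063 and 1360 with defactinib. Under the same scaling VS-4718 went from 3273 and 3030 to 4015 and 2394, GSK2256098 from 1022 and 979 to 1242 and 808, and VS-4718 against GSK2256098 from 2522 and 2299 to 3135 and 1856.

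Libraries with the same replicate number did not deviate together (r from -0.18 to 0.15 over 21 pairs, 1 over 0.1, and 6 libraries closest to their own number). With the replicate number as a block, 69 of 70 differences from DMSO and 110 of 110 between agents kept their side of the threshold, and Smad7 with GSK2256098 passed it (-0.26, edgeR adjusted p = 0.0433). Between replicates of a group the variance was 1.73 to 8.48 times that of sampling noise (chi-square per degree of freedom) over 24 pairs of libraries. Read depth was as low as 104 reads in a library for Id2, 96 for Id3, 112 for Smad7 and 138 for Id1.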
